A study of Mus musculus with 6 samples.

Results

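The genes described here encode calmodulin-dependent protein kinases and calcineurin, the enzymes that write and erase phosphate marks when calcium rises in a neuron. The set comprised 10 genes, and members were all probe sets whose platform annotation, under a current or an older symbol, named 1 of them and no other gene. This gave 24 probe sets of 8 genes, out of 36701 probe sets on 3 array designs. Camk2a, Camk2b, Camk2d, Camk2g, Camk4, Camkk2, Ppp3ca and Ppp3cb were represented, and no probe set was assigned to Camk1 or Camkk1 by the annotation used here.

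RNA came from deep cerebellar nuclei of male C57BL/6 mice aged 11 to 18 weeks, dissected around the anterior interpositus nucleus on the side of the trained eye. In the paired group, 7 days of delay eyeblink training joined a tone of 352 ms to a shock beside the eye of 100 ms, which began 252 ms after tone onset and ended with it. The unpaired group received both stimuli over 7 days, never joined and in a pseudorandom order, and all mice of both groups carried eyelid wires and a headstage. For both groups the sample labels also give 3 days of recovery and sampling at 10 to 30 min. Each group was measured as pooled nuclei, 10 to 15 per pool, with 1 array on each of the designs A, B and C, 6 arrays in all. With 1 array per pool and design there is no spread between samples, no test and no p-value, and the number of arrays limits the precision.

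Calmodulin that has bound calcium activates CaMKII, a holoenzyme of alpha, beta, gamma and delta subunits that can phosphorylate itself and so stay active after calcium has fallen. Calmodulin also activates a kinase cascade in which CaM kinase kinases switch on CaMKI and CaMKIV, and the phosphatase calcineurin, which removes phosphate from many of the same neuronal proteins. In the cerebellum these enzymes take part in synaptic plasticity, and CaMKIV is known for its abundance in granule cells.

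The comparison asked whether transcripts of these enzymes differed between nuclei after paired training and nuclei after unpaired training. None of the measured member probe sets differed by 1.5-fold. A probe set counted as measured when its mean signal over the pools reached its design's median, and 17 of the 24 did, for 7 of the 8 genes. Of these 17, the count past 1.5-fold was 0, where 0.681% of the 18351 measured probe sets of all genes lay past 1.5-fold. The size of the differences was close to that of other probe sets, with a median absolute log2 difference of 0.13 over the 17, against 0.12 over all measured probe sets. Differences are paired minus unpaired on the log2 scale, after the paired array of each design was shifted by 0.010 or less, and so can depart by that much from the deposited signals.

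**Figure D1:**
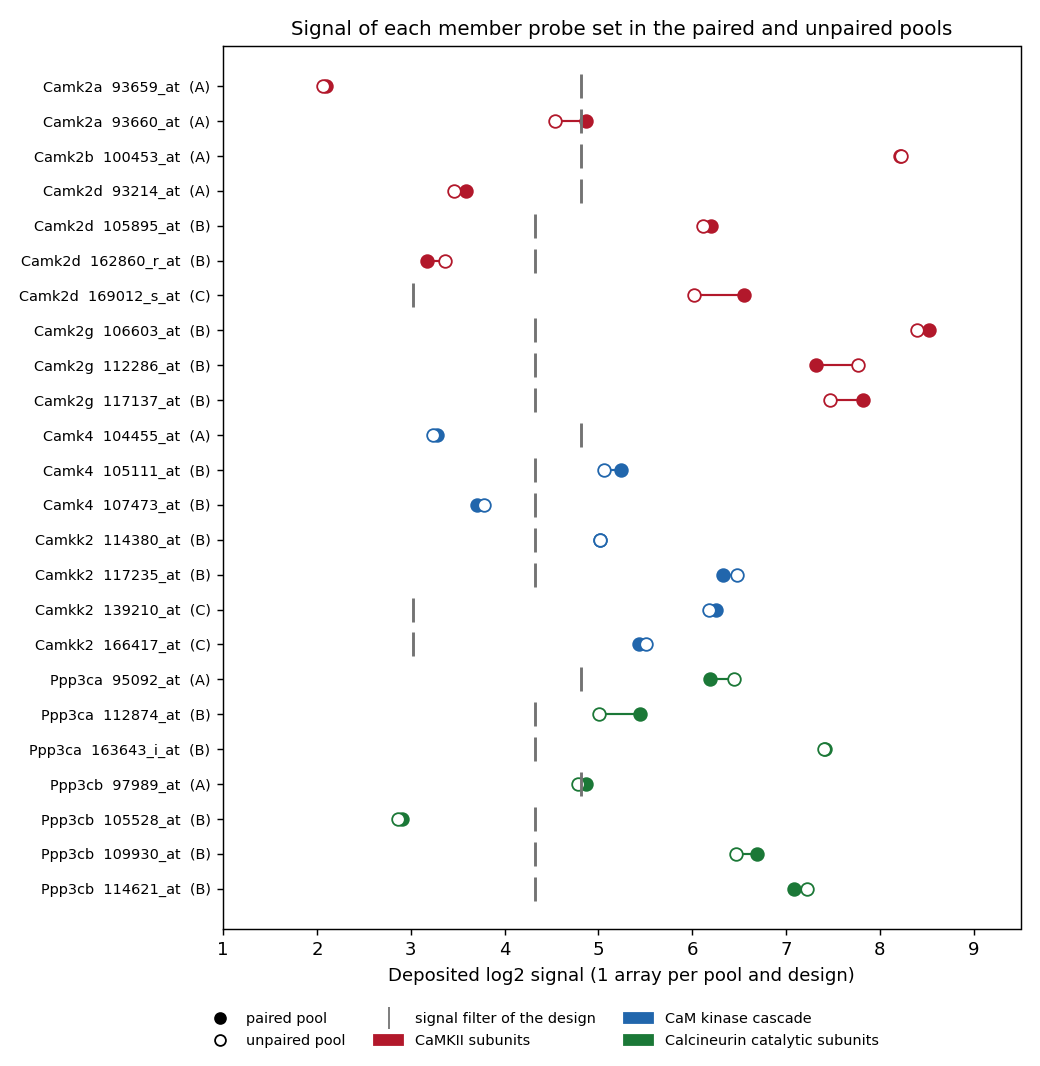
Deposited log2 signal (x axis) of each of the 24 member probe sets (rows, with the array design in brackets) in the paired pool (filled circles) and the unpaired pool (open circles), each circle being 1 array, with no error bars. The vertical mark in each row is the design's signal filter, the median of the mean signals. Both Camk2a probe sets had a mean signal left of their mark, while Camk2b and all 3 Camk2g probe sets lay far to the right.

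Among the CaMKII subunits, the beta subunit gene Camk2b had 1 probe set, 100453_at on design A. Its log2 signal was 8.21 in the paired pool and 8.22 in the unpaired pool. The signals lay at the 93.6th percentile of the design's probe sets in the paired pool and the 93.4th percentile in the unpaired pool. The scaled difference was 0.00041, so the pools were level at this probe set.

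Camk2a encodes the alpha subunit, the form that is most abundant in forebrain excitatory neurons. Neither of its probe sets, both on design A, passed the signal filter. Probe set 93659_at had a log2 signal of 2.09 in the paired pool and 2.06 in the unpaired pool, under the 1st percentile of the design in each. Probe set 93660_at had 4.86 in the paired pool and 4.53 in the unpaired pool. Its mean signal of 4.70 lay just under the filter of 4.82, at the 50.5th percentile in the paired pool and the 45.6th in the unpaired pool. Its difference was 0.34, but a gene without a measured probe set is not counted here. A percentile depends on how well the probes of a set hybridise, so it places a probe set on its array and does not rank the subunit transcripts by abundance.

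The gamma subunit gene Camk2g had the widest span of the members. It had 3 probe sets, all on design B, and all of them lay above the 94th percentile of signal in both pools. Probe set 112286_at had a log2 signal of 7.32 in the paired pool and 7.77 in the unpaired pool, a difference of -0.44. Probe set 117137_at went the other way, with 7.82 in the paired pool and 7.47 in the unpaired pool, a difference of 0.36. Probe set 106603_at had 8.52 in the paired pool and 8.40 in the unpaired pool, a difference of 0.13. The first was lower in the paired pool and the other two were higher. The gene mean was 0.017 ± 0.41 (SD over 3 probe sets of the same 2 arrays).

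Of these opposite differences, that at 112286_at lay at the 1.71st percentile of the log2 differences on design B, outside the central 95%. That at 117137_at lay at the 96.1st percentile, inside the central 95%. Among the 500 measured probe sets nearest in signal on design B, log2 differences had an SD of 0.19. The difference at 112286_at was -2.37 times this SD and that at 117137_at 1.95 times. The span from the lowest to the highest Camk2g probe set was 0.80. Of 740 genes with 3 measured probe sets, 23 had a span at least as wide (3.11%), and their median span was 0.31. The 3 probe sets were read on the same arrays, and which stretch of the transcript each covers was not checked. The SD among probe sets of like signal and the span between probe sets were both chosen as yardsticks after the values were seen.

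Camk2d, the delta subunit gene, had the largest single difference of the family. Its probe set 169012_s_at on design C had a log2 signal of 6.55 in the paired pool and 6.02 in the unpaired pool. The paired pool was higher by 0.54, or 1.46-fold, which lay at the 99.6th percentile of the log2 differences on design C and was 3.17 times the SD among probe sets of like signal. The letter in its name marks probes that can match more than 1 transcript. Probe set 105895_at on design B had 6.20 in the paired pool and 6.12 in the unpaired pool, a difference of 0.093 that lay well inside the central 95% of its design.

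The other Camk2d probe sets were below the filter and pointed in opposite directions. On design A, 93214_at had 3.59 in the paired pool and 3.46 in the unpaired pool. On design B, 162860_r_at had 3.18 in the paired pool and 3.36 in the unpaired pool. The gene mean of the measured pair was 0.32 ± 0.32 (SD, 2 probe sets), and without 169012_s_at it is 0.093. Of 2403 genes with 2 measured probe sets, 10.1% had a span as wide as the 0.45 of Camk2d.

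**Figure D2:**
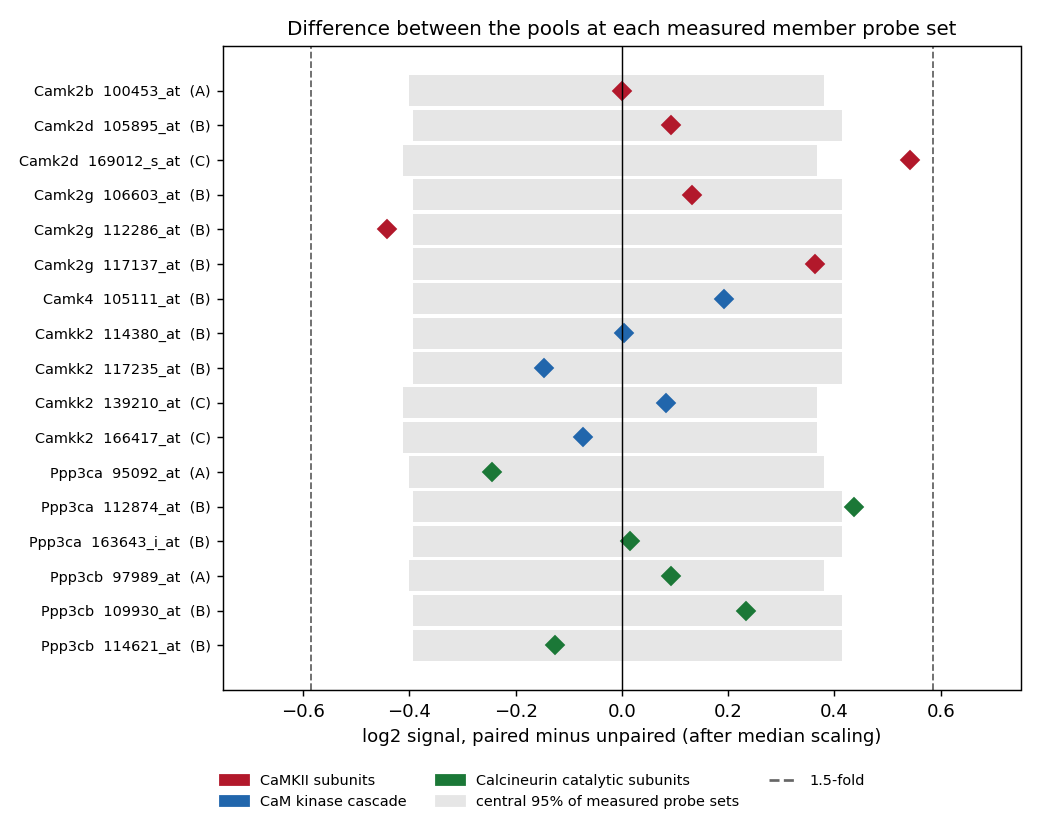
Difference in log2 signal, paired minus unpaired, after median scaling (x axis) at each of the 17 measured member probe sets (rows, with the array design in brackets). Grey bars span the central 95% of all measured probe sets of that design, and dashed lines mark 1.5-fold. Camk2d 169012_s_at, Camk2g 112286_at and Ppp3ca 112874_at, 3 of the 17, lie outside the grey bars, and no point reaches a dashed line. The bars hold 95% of all measured probe sets by construction.

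In the CaM kinase cascade, Camkk2, which encodes the beta form of the kinase that phosphorylates CaMKI and CaMKIV, had the narrowest span of the 5 genes with several measured probe sets. Its 4 probe sets were all measured. On design B, 114380_at had a log2 signal of 5.01 in the paired pool and 5.02 in the unpaired pool, and 117235_at had 6.32 in the paired pool and 6.48 in the unpaired pool. On design C, 139210_at had 6.25 in the paired pool and 6.17 in the unpaired pool, and 166417_at had 5.43 in the paired pool and 5.51 in the unpaired pool. The differences ran from -0.15 to 0.083, with 2 probe sets on each side of 0, of which 114380_at stood at 0.0046 and took the other sign with no scaling. Camkk2 had a gene mean of -0.033 ± 0.099 (SD, 4 probe sets). This span of 0.23 was narrower than the median span of 0.39 among the 209 genes with 4 measured probe sets.

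Camk4 encodes CaMKIV, a largely nuclear kinase that phosphorylates the transcription factor CREB. One of its 3 probe sets was measured, 105111_at on design B, with a log2 signal of 5.24 in the paired pool and 5.06 in the unpaired pool. The paired pool was higher by 0.19, which was 0.90 of the SD among probe sets of like signal and at the 83.8th percentile of design B. Of the unmeasured probe sets, 107473_at on design B had 3.71 in the paired pool and 3.78 in the unpaired pool. The other, 104455_at on design A, had 3.28 in the paired pool and 3.24 in the unpaired pool, at or near the floor of 3.28 set for that design.

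Markers of granule cells, the cells that CaMKIV is known for, were read beside this value. Of 10 listed granule markers 7 were measured, and 6 of these were higher, with a median log2 difference of 0.35. Gabra6, a GABA receptor subunit, averaged 0.89, the cadherin Fat2 0.47 and Cadps2, which acts in vesicle release, 0.40. Gabra6 92940_s_at, at 1.04, had an unpaired signal of 4.63, under the filter of 4.82, and passed through the paired pool, and the other Gabra6 probe set stood at 0.73. Summed over the listed markers, linear signal on design A was 845 in the paired pool and 699 in the unpaired pool, on design C 223 in the paired pool and 169 in the unpaired pool, and on design B, with 1 probe set, 5.28 in the paired pool and 5.81 in the unpaired pool. Cbln3 and Neurod1 were below the filter and Etv1 had no probe set assigned to it alone. In pooled tissue, the number of cells of a type and the RNA per cell cannot be told apart. The part of granule cells in the Camk4 value was not tested. The list was drawn up with the high values of Gabra6, Fat2 and Cadps2 already known.

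Calcineurin is a catalytic A subunit bound to a regulatory B subunit, and Ppp3ca and Ppp3cb encode the catalytic subunits of the brain. Ppp3ca had 3 measured probe sets with differences of unlike size and direction. On design B, 112874_at had a log2 signal of 5.44 in the paired pool and 5.01 in the unpaired pool, a difference of 0.44 or 1.35-fold that lay at the 98.0th percentile of that design and was 1.98 times the SD among probe sets of like signal. On the same arrays 163643_i_at had 7.42 in the paired pool and 7.41 in the unpaired pool, a difference of 0.015. On design A, 95092_at had 6.19 in the paired pool and 6.44 in the unpaired pool, a difference of -0.24. The gene mean was 0.069 ± 0.34 (SD, 3 probe sets), and the span of 0.68 was matched or passed by 6.76% of the genes with 3 measured probe sets.

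Ppp3cb had 4 probe sets, of which 3 were measured. On design B, 109930_at had a log2 signal of 6.69 in the paired pool and 6.46 in the unpaired pool, a difference of 0.23. On the same design 114621_at had 7.08 in the paired pool and 7.22 in the unpaired pool, a difference of -0.13. On design A, 97989_at had 4.87 in the paired pool and 4.78 in the unpaired pool, with a mean signal of 4.83, just over the filter of 4.82. The fourth, 105528_at, had 2.90 in the paired pool and 2.87 in the unpaired pool and lay under the floor of 3.15. The gene mean was 0.067 ± 0.18 (SD, 3 probe sets), with probe sets on both sides of 0.

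**Figure D3:**
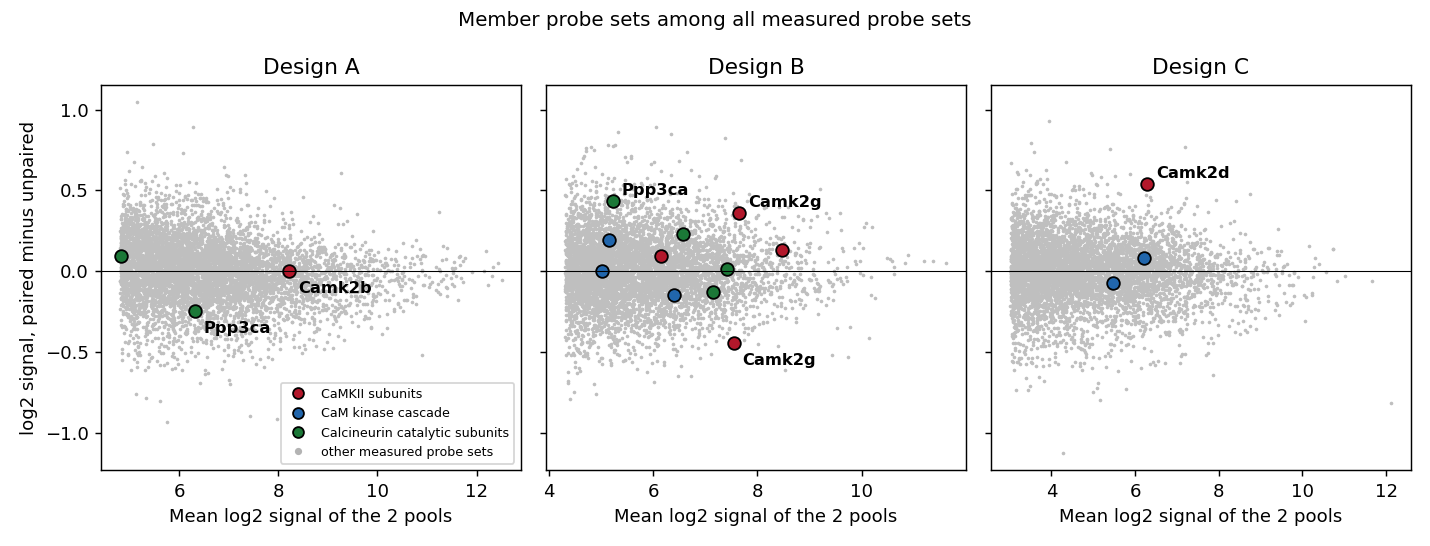
Difference in log2 signal, paired minus unpaired (y axis), against the mean log2 signal of the pools (x axis) for all 18351 measured probe sets (grey) and the 17 measured member probe sets (coloured), 1 panel per array design. Each point is 1 probe set with 1 array per pool. The pair of labelled Camk2g points on design B lies on opposite sides of 0 at nearly the same signal, and Camk2b lies on the 0 line.

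Across the family, 12 of the 17 measured probe sets were higher and 5 lower in the paired pool, the probe set of Camk2b and 114380_at of Camkk2 being so close to 0 that they turned sign with no scaling. The scaling put the median difference of each design's brighter probe sets at 0, so about as many of those were higher as lower. By role, 5 of 6 CaMKII probe sets, 3 of 5 cascade probe sets and 4 of 6 calcineurin probe sets were higher. Ppp3cb 97989_at, one of these 4, reached the filter in the paired pool and not in the unpaired pool. Among the 16 probe sets above the filter in both pools, 11 were higher and 5 lower, with 3 of 5 calcineurin probe sets higher. At a smaller size, chosen once none had passed 1.5-fold, 4 of 17 lay past 1.2-fold, 3 higher (Camk2d 169012_s_at, Camk2g 117137_at and Ppp3ca 112874_at) and 1 lower (Camk2g 112286_at). Of all measured probe sets, 16.4% lay past 1.2-fold, 8.03% higher and 8.33% lower. Probe sets of a gene share arrays and RNA, so these are not 17 independent observations.

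By gene mean, 6 of the 7 measured genes lay above 0, where 49.0% of the 10579 measured genes did, but several of these means were near 0 and Camk2b, at 0.00041, took the other sign with no scaling. The median over the genes was 0.067, against -0.0039 over all measured genes, and the SD of gene values was 0.17. In order, the gene values were 0.32 for Camk2d, 0.19 for Camk4, 0.069 for Ppp3ca, 0.067 for Ppp3cb, 0.017 for Camk2g, 0.00041 for Camk2b and -0.033 for Camkk2. Every step in this order was smaller than the SD over the probe sets of at least 1 of the genes it joins. Of the 5 genes with several measured probe sets, 4 had them on both sides of 0, Camk2d being the exception.

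Partners of the kinases were described from 8 lists of pathway genes, by their counts and medians. Of the CaMKII inhibitors and anchors, 3 of 6 measured genes were higher and 3 lower, with a median of 0.0074 and no probe set past 1.5-fold. Camk2n1, an endogenous inhibitor protein of CaMKII, was lower after paired training at each of its probe sets, which lay on design B. One, 113866_at, had a log2 signal of 4.95 in the paired pool and 5.43 in the unpaired pool, a difference of -0.47. The other, 162963_at, had 6.68 in the paired pool and 6.88 in the unpaired pool, a difference of -0.20. The actin cross-linker Actn1 had -0.33 and the scaffold gene Dlg4 0.26, each on 1 probe set.

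Calmodulin and the proteins that buffer it had 2 of 7 measured genes higher and 5 lower, with a median of -0.092 and no probe set past 1.5-fold. Gap43, a growth cone protein that binds calmodulin, had a difference of -0.25 on 1 probe set. The striatin genes Strn3 and Strn had gene means of -0.20 each, with the probe sets of Strn3 at -0.50 and 0.095. Calm2, a calmodulin gene, was level at -0.0018.

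Kinases related to the family included 6 of 14 measured genes higher and 8 lower, with a median of -0.045. Of their 27 measured probe sets 2 lay past 1.5-fold, both higher in the paired pool, as did 0.349% of all measured probe sets, with 0.332% lower. Pnck, a CaMKI of neurons, had one of them. Its 164540_i_at had a log2 signal of 7.49 in the paired pool and 6.91 in the unpaired pool, a difference of 0.59, while its other probe sets stood at 0.36, 0.040 and -0.13. Dclk1, a doublecortin-like kinase, had the other, 168147_s_at at 0.79, among 4 measured that ran down to -0.17, and Dapk2 had 0.24. Both carry a letter suffix, and the count was 1 with no scaling and 0 without suffixed probe sets. Camk1d and Camk1g, the kin of the absent Camk1, were looked up after the values were seen. Camk1g had a log2 signal of 7.26 in the paired pool and 7.35 in the unpaired pool, and the measured probe sets of Camk1d had differences of -0.17 and 0.33.

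Among calcineurin partners and regulators, 6 of 12 measured genes were higher and 6 lower, with a median of 0.0069 and no probe set past 1.5-fold. Ppp3r1, which encodes the regulatory B subunit, had a log2 signal of 8.92 in the paired pool and 8.70 in the unpaired pool at its design A probe set, a difference of 0.23. Its design C probe set had 5.57 in the paired pool and 5.54 in the unpaired pool. Rcan1, an inhibitor of calcineurin that calcineurin itself induces through NFAT, had 5.96 in the paired pool and 6.33 in the unpaired pool, a difference of -0.37 on 1 probe set. Fkbp1a, which encodes the protein through which the drug FK506 blocks calcineurin, had -0.30. The third catalytic subunit gene, Ppp3cc, lay below the filter.

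Of the other 4 lists, CaMKII substrates had a measured probe set past 1.5-fold and the other 3 had none. Calcineurin targets had 6 of 13 genes higher and a median of -0.042. Pacsin1, an endocytosis gene, had -0.29, the lysosomal transcription factor gene Tfeb 0.27 and Nfatc2 -0.24. Among the Nfatc2 probe sets below the filter, 93074_g_at stood at 0.61, 105506_at at -0.15 and 93075_r_at at 0. With no signal filter, the count of calcineurin target probe sets past 1.5-fold was 1. CaMKII substrates had 5 of 16 genes higher and a median of -0.072. Of their 22 measured probe sets 1 lay past 1.5-fold, a Map2 probe set at 0.61 whose partner stood at 0.058, and the count was 0 under loess scaling. The potassium channel gene Kcnd2 had -0.52 on 99339_r_at, which passed the filter through the unpaired pool alone, while its other design A probe set, below the filter, stood at -0.091. The calcium channel gene Cacna1c had -0.37 on 137133_s_at, while its other probe set, below the filter, stood at -0.0016. The synapsin gene Syn1 had -0.36 on 1 probe set, 137221_f_at. Genes of CREB and its coactivators had 4 of 8 higher and a median of 0.00014, with Crebl2 at 0.14, Atf2 at -0.12 and Crtc1 at -0.099. CaM kinase phosphatases with PP1 and PP2A had 5 of 13 higher and a median of -0.063, with the PP1 catalytic genes Ppp1cb at -0.39 and Ppp1cc at -0.22 and the spine protein gene Ppp1r9a at 0.17.

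**Figure D4:**
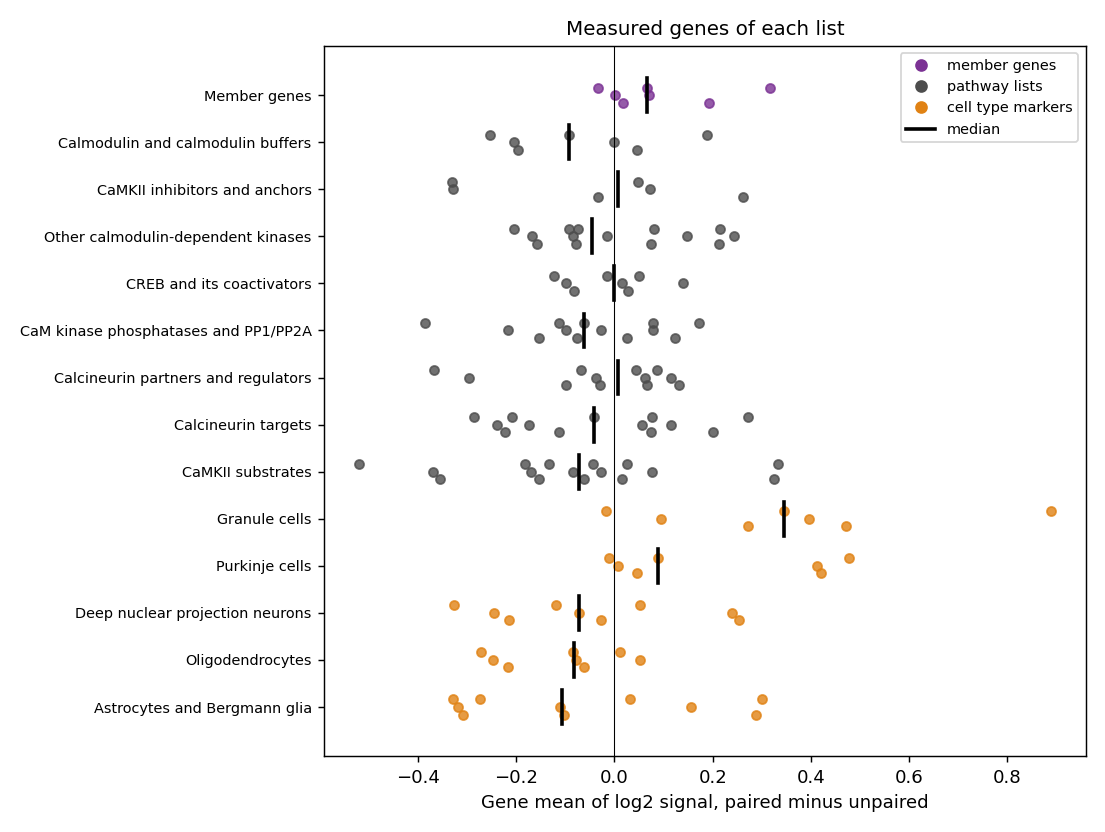
Gene means of the log2 difference, paired minus unpaired (x axis), for the measured genes of each list except forebrain neurons (rows). The 7 measured member genes are in the top row. Each point is 1 gene, black bars are medians, and colours separate members, pathway lists and cell type markers. Member and pathway medians lie between -0.092 and 0.067, and the granule cell markers have the highest median at 0.35.

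The cell type markers were read beside the members because kinase transcripts differ between cell types. All 9 listed markers of deep nuclear projection neurons with a probe set were measured, 3 higher and 6 lower with a median of -0.073, with Irx3 at -0.33, Slc17a6 at 0.25 and Nefh at -0.24. The Slc17a6 mean rests on 108915_at at 0.85, and without it the other 2 probe sets average -0.043. Purkinje cell markers had 6 of 7 higher and a median of 0.088, with Shisa6 at 0.48, Car8 at 0.42 and Ppp1r17 at 0.41. The Car8 mean falls to 0.24 without 166848_at, which stood at 0.61. The other measured Purkinje markers differed less, with Calb1 at 0.088, Cbln1 at 0.046, Pcp2 at 0.0080 and Rgs8 at -0.011. Pcp2 had probe sets at 0.094 and -0.078. Ppp1r17 98292_at reached the filter in the paired pool and not in the unpaired pool, and the gene's other measured probe set, 165877_at, stood at 0.42. Oligodendrocyte markers had 2 of 8 higher and a median of -0.081, with Sox10 at -0.27, Gsn at -0.25 and Cldn11 at -0.22. Without 102856_at, at -0.53, the other 2 Sox10 probe sets average -0.14. Astrocyte and Bergmann glia markers had 4 of 10 higher and a median of -0.11, with S100b at -0.33, Timp4 at -0.32 and Fabp7 at -0.31. Fabp7 stood at -0.11 without 166867_f_at, whose paired signal lay under the filter. Named after their values were seen, Aqp4 at 0.30 over 3 probe sets and Slc1a3 at 0.29 over 2 had all their measured probe sets higher. Summed linear signal of these glial markers was 4892 in the paired pool and 4666 in the unpaired pool on design A, 2973 in the paired pool and 2622 in the unpaired pool on B, and 871 in the paired pool and 1071 in the unpaired pool on C. Of the forebrain neuron markers, Emx1 was measured, at -0.095, and Neurod6 and Tbr1 were below the filter. The part of cell composition in the member values was not tested.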

How the data were processed

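Biotin-labelled cRNA (15 ug per the labels' protocols) from each pool was measured on 1-colour arrays. The authors deposited 1 value per array and probe set, taken here as log2 signal. The base is inferred from their range, and how the probes were summarized, background-corrected and normalized is not given in the sources used. Controls (198 probe sets) were set aside. Of the other 36701 probe sets, 29131 had 1 gene symbol, 724 several and 6846 none, in platform annotation that can be old. Symbols were updated by gene identifier with the RefSeq table of GRCm38.p6 (29044 matched, all 24 member probe sets among them).

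Scaling was by design. A constant was added to the paired array so that log2 differences had a median of 0 over the brighter 50% of probe sets. Each design's 25th percentile served as a floor, and its median mean signal as the filter for calling a probe set measured. No scaling ran across designs. Gene values are means over measured probe sets. Signal percentiles are among the non-control probe sets of a design. The arrays of a design correlated across probe sets with Pearson r of 0.991 to 0.995.

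Named genes were all members and, from each list, up to 3 genes with the largest absolute log2 difference and any pathway gene with a probe set past 1.5-fold. Calm2, Camk1d, Camk1g, Aqp4, Slc1a3 and the Purkinje markers Calb1, Cbln1, Pcp2 and Rgs8 were named outside this rule, as were some unmeasured genes. Members and lists were chosen with earlier results of these data known. Steps were tested on simulated data, in Python 3.11.15 with numpy 2.4.6, pandas 2.3.3 and statsmodels 0.14.6. Alternatives were no, quantile or loess scaling (span 0.3), no floor or one at the median, no filter or one at the 75th percentile, no suffixed probe sets, each design alone, and the brightest probe set per gene. The 1.2-fold count, the SD among 500 neighbours in signal, the spans, list counts under the alternatives, the filter in both pools and gene means without 1 probe set were added after seeing the data.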

Additional observations from a re-analysis of the deposited data

How the results depend on the processing

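The count of member probe sets past 1.5-fold was 0 under all 11 alternatives that apply to it, but not all of these could have changed it. A higher filter, the removal of suffixed probe sets and each design alone only take probe sets away. A count of 0 cannot rise under them, so they do not test it. The count could have risen under the changes of scaling or with no filter, and it stayed at 0. Log2 differences of the 17 member probe sets moved by at most 0.049 over the changes of scaling. Changes of floor and filter left each difference as it was or dropped the probe set. Of 113 comparisons, which include these fixed ones, 4 took the other sign, 1 for Camk2b and 3 for Camkk2 114380_at, both close to 0. The median over the member genes ran from 0.00041 to 0.27 and stayed above 0, and the high end, 0.27 on design C alone, rests on Camk2d and Camkk2. The 1.2-fold count was 0 on design A alone and 1 on design C alone, where fewer probe sets enter. List medians took the other sign in 21 of 163 comparisons. Those that moved by more than 0.17, the SD of gene values used as the spread for want of replicates, all came from single designs, which hold fewer genes: other calmodulin-dependent kinases 0.16 on A, CaMKII substrates 0.13 on B, Purkinje cells 0.45 on C, and astrocytes and Bergmann glia 0.20 on B and -0.30 on C. No paired analysis was possible because each pool had 1 array per design. Signal over background limits the 2 Camk2a probe sets and 5 others, which lay below the filter, and without replicate pools no difference can be set against the spread between mice.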
